A study of Homo sapiens with 15 samples.

Results

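The 8 genes described here encode regulators that are best known from liver and from other organs of the endoderm, the germ layer that gives rise to liver, gut and lung. They are HNF4A and HNF4G, FOXA1, FOXA2 and FOXA3, CEBPA, NR1H4 and A1CF. A gene was represented by the array rows whose annotation gave its symbol and no other, and by the row with the highest mean over the 15 arrays where several did. By this rule 6 of the 8 genes had a row among the 135750 transcript clusters analysed, each of them exactly 1, whereas HNF4A and NR1H4 matched no row by this rule and are not analysed here. The group is called hepatic and endodermal transcription factors, but A1CF is an RNA-binding protein, so the group held 5 measured transcription factors and 1 RNA-binding protein.

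The hepatocyte nuclear factors HNF4A and HNF4G are orphan nuclear receptors that bind direct repeats in the promoters of apolipoprotein, coagulation and drug metabolism genes. The FOXA proteins are winged-helix factors that can bind closed chromatin and open it for other factors, and they are needed for the outgrowth of liver and lung from the foregut. CEBPA is a basic leucine zipper factor of hepatocytes, adipocytes, granulocytes and lung epithelium, NR1H4 encodes the bile acid receptor FXR, and A1CF binds APOB mRNA and takes part in its editing together with APOBEC1.

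The RNA came from A549, an established cell line of a human lung adenocarcinoma, and was hybridised to Clariom D arrays of Affymetrix. Cultures on membrane inserts were kept with medium below and air above them, in serum-free medium before exposure. They met the vapour for 60 min and then recovered for 23 h, and this cycle was run 3 times within 72 h. The non-exposed control cells (NEC) received no gas flow, the clean air control cells (CA) received clean air without the compound, and the low (LD), mid (MD) and high dose (HD) cells received dimethylamine vapour at 14.9, 41.1 and 81.7 ppm. Each of the 5 groups had 3 arrays. By the paper's account, the sample of MD replicate 3 was an outlier on its sequencing platform, TempO-Seq, and was removed there. The array of that sample was kept here. RNA of 2 wells was pooled for an array, and p-values here reflect only how such pools of the same line vary. The labels place LD on exposure plate 1, MD on plate 5 and HD on plate 6, and they place 1 CA array and 1 NEC array on every plate. They do not settle whether a plate number stands for 1 physical plate. By the paper's account, fewer wells of a plate met the substance than 3 arrays of 2 pooled wells need. The 3 arrays of a dose would then span more than 1 physical plate, which limits what comparisons within a plate number can show. Below, a plate means the arrays that share a number. Each dose has 1 plate number, so dose and plate cannot be told apart without the control arrays of that number. The tests took the 3 arrays of a dose as independent. They also used 1 estimate of spread for the doses, each within a plate number, and for CA and NEC, which cross plate numbers.

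Signals are on the log2 scale, so that a difference of 1 is a factor of 2, and they ran between 2.08 and 19.93. On each array, 612 negative-control clusters gave the background, with medians between 4.30 and 4.85. Their 95th percentiles were much higher, at 7.25 to 7.82. A level above the median, which is called above background here, is therefore not yet a clear detection. All 6 epithelial markers had group means above these medians in all 5 groups. Of the markers of other cell types, 5 of 8 for hepatocytes, 3 of 8 for alveolar type II cells, 3 of 5 for leukocytes, 4 of 5 for fibroblasts and 1 of 4 for endothelium were above background in at least 1 group. The hepatocyte markers so counted had group means of at most 6.38 (TTR in NEC), below the 95th percentile of the negative controls. These counts therefore do not show that the cells express such markers. The alveolar type II markers SFTPB, SFTPC, SFTPA1, NAPSA and NKX2-1 lay below background in every group mean, although A549 is often used as a model of that cell. The other 3 measured markers of that cell, SFTPD, LAMP3 and ABCA3, were above background in at least 1 group. SFTPD was above it in all 5, with group means of 5.72 to 5.99, below the 95th percentile of the negative controls. The mean level of the 8 hepatocyte markers was 4.87 to 5.07 on the NEC arrays, 4.97 to 5.09 on CA, 4.49 to 4.86 on LD, 4.69 to 4.87 on MD and 4.76 to 4.91 on HD. Of all marker genes, only the epithelial KRT19 passed a test, higher by 1.82 in HD than in NEC (limma adjusted p = 0.0066, or 0.105 with the plate as a block), among HD, MD and LD against CA, CA against NEC, HD against NEC and the slope on concentration.

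On GRCh38.p14, RefSeq places FOXA1 at chr14:37589552-37595249, FOXA2 at chr20:22580998-22585490, FOXA3 at chr19:45864326-45873797, CEBPA at chr19:33299934-33302534 and A1CF at chr10:50799409-50885627. HNF4G and FOXA1 were the 2 genes with a signal above the negative-control median on all 15 arrays. A1CF was above it on 6 arrays and FOXA2 on 5, whereas FOXA3 and CEBPA were above it on none. Differences of these last 4 genes are therefore differences close to or below the background of the array, and their size is uncertain. HNF4G and FOXA1 were not clear of the negative controls on every array either. On CA replicate 1 they lay at 7.40 and 7.02, under the 95th percentile of its negative controls, 7.82. For HNF4G this was the only such array. FOXA1 was also under the 95th percentile on NEC replicates 1 and 2, LD replicate 3, MD replicate 1 and HD replicates 1 and 2. In RNA from a whole culture, fewer cells with a transcript and less of it per cell cannot be told apart.

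**Figure D1:**
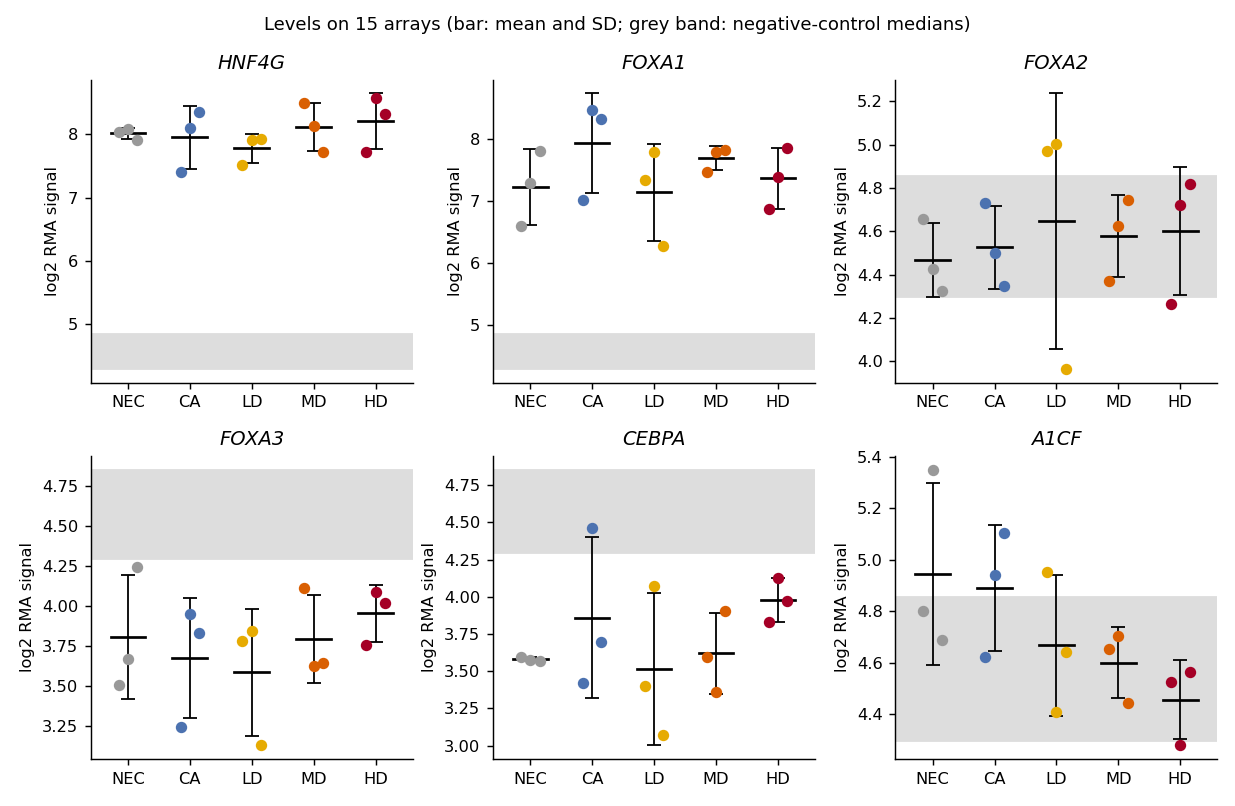
Log2 signal of the 6 measured genes (y axes, a separate range for each gene) on the 3 arrays of each group (x axes, NEC, CA, LD, MD and HD), with the group mean as a long bar and the SD as the error bar. The grey band spans the negative-control medians of the arrays, 4.30 to 4.85, and only HNF4G and FOXA1 lie above it on all 15 arrays.

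HNF4G, the nuclear receptor paralog of HNF4A, had log2 signals of 8.04, 8.09 and 7.91 on the NEC arrays, 7.40, 8.10 and 8.35 on CA, 7.51, 7.90 and 7.92 on LD, 8.49, 8.14 and 7.73 on MD, and 7.72, 8.57 and 8.33 on HD. All groups overlapped, and CA alone spanned nearly the whole range. On each array, between 92.3% and 98.7% of the negative-control clusters were dimmer. The group means were 8.02 ± 0.09 in NEC, 7.95 ± 0.49 in CA, 7.78 ± 0.23 in LD, 8.12 ± 0.38 in MD and 8.21 ± 0.44 in HD (SD, n = 3 each). The order of the means, highest in HD and lowest in LD, contained no neighbouring pair that differed beyond its spread (smallest limma adjusted p = 0.963).

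FOXA1, the pioneer factor of lung, breast, prostate and liver epithelium, had the widest range of the 6 genes over the 15 arrays, 2.18 on the log2 scale. Its signals were 6.59, 7.29 and 7.81 on the NEC arrays, 7.02, 8.47 and 8.33 on CA, 7.35, 7.80 and 6.29 on LD, 7.47, 7.79 and 7.83 on MD, and 6.88, 7.39 and 7.86 on HD. Replicates 2 and 3 of CA were the highest of all 15 arrays and replicate 3 of LD was the lowest, while replicate 1 of CA lay among the lowest. The group means were 7.23 ± 0.61 in NEC, 7.94 ± 0.80 in CA, 7.14 ± 0.78 in LD, 7.70 ± 0.20 in MD and 7.38 ± 0.49 in HD (SD, n = 3 each). All group pairs overlapped. Between 85.5% and 98.7% of the negative-control clusters were dimmer than FOXA1, depending on the array.

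FOXA2, which acts with FOXA1 in early foregut endoderm, had signals of 4.66, 4.42 and 4.32 on the NEC arrays, 4.73, 4.50 and 4.35 on CA, 4.97, 5.00 and 3.97 on LD, 4.37, 4.62 and 4.74 on MD, and 4.27, 4.72 and 4.82 on HD. The LD group held both the highest arrays and the lowest one. Between 37.3% and 62.1% of the negative controls were dimmer than FOXA2. Its group means covered a range of 0.18, the smallest of the 6 genes.

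FOXA3, the member of the family most tied to liver and gut, had signals of 3.51, 3.67 and 4.24 on the NEC arrays, 3.24, 3.95 and 3.83 on CA, 3.78, 3.85 and 3.13 on LD, 4.11, 3.63 and 3.64 on MD, and 3.75, 4.09 and 4.02 on HD. CEBPA had signals of 3.60, 3.58 and 3.57 on the NEC arrays, 3.42, 4.46 and 3.70 on CA, 3.40, 4.07 and 3.07 on LD, 3.60, 3.36 and 3.90 on MD, and 3.83, 4.13 and 3.97 on HD. For both genes every array lay below its own negative-control median, with at most 35.5% of the negative controls dimmer than FOXA3 and at most 42.3% dimmer than CEBPA. The clusters of 2 noncoding neighbours, HNF4A-AS1 and CEBPA-DT, which were looked at because of their names and do not belong to the 8 genes, were also below that median on all 15 arrays, at 3.36 to 4.18 for HNF4A-AS1 and 3.21 to 4.19 for CEBPA-DT.

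A1CF had signals of 4.80, 5.35 and 4.69 on the NEC arrays, 4.62, 4.94 and 5.10 on CA, 4.95, 4.41 and 4.64 on LD, 4.65, 4.70 and 4.44 on MD, and 4.53, 4.28 and 4.56 on HD. The HD arrays were all below the CA and the NEC arrays, and the LD and MD arrays overlapped with both controls. The group means were 4.95 ± 0.35 in NEC, 4.89 ± 0.25 in CA, 4.67 ± 0.27 in LD, 4.60 ± 0.14 in MD and 4.46 ± 0.15 in HD (SD, n = 3 each). They thus ran downward from the controls over the 3 doses, but no neighbouring pair in this order differed beyond its spread (smallest limma adjusted p = 0.926), and the negative-control medians, at 4.30 to 4.85, covered the same range of signals. Relative to the negative-control median of each array, the order was another. The means were then 0.18 in NEC, 0.21 in CA, 0.22 in LD, -0.16 in MD and -0.23 in HD, with LD the highest.

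A1CF and FOXA1 are the genes on which the comparisons below turn, and their promoters are shown for that reason. They were taken from RefSeq on GRCh38.p14, from 250 bases before to 50 bases after the start of the gene, in the direction of transcription. Capitals mark matches to a FOXA motif on either strand.
A1CF, chr10:50885578-50885877, minus strand: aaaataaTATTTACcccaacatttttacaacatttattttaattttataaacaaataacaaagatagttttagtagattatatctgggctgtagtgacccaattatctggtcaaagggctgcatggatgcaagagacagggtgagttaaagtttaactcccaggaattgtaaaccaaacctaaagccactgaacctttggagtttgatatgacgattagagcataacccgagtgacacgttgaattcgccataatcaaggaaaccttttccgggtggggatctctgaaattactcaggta
FOXA1, chr14:37595200-37595499, minus strand: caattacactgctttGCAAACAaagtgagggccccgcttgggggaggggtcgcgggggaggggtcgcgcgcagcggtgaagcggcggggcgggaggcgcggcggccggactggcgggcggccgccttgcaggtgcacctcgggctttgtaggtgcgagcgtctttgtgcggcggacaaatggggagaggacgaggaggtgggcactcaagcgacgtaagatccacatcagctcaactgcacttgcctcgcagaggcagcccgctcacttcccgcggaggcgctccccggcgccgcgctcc

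The A1CF promoter had a G and C content of 36.7% and held TATTTAC at positions -243 to -237 from the start, and the FOXA1 promoter had 69.3% and held TGTTTGC on the opposite strand at -235 to -229. Both strands were searched for every motif. Among the measured genes, the promoters of HNF4G and FOXA2 were not examined individually. Of all 35116 promoters of this length, 2.67% held TATTTAC, 3.89% held TGTTTGC, 3.42% held TGTTTAC and 9.57% held any of these 3 motifs. The promoters of CEBPA and FOXA3 held none of the 3. Neither these 2 nor those of A1CF and FOXA1 held the HNF4 motifs CAAAGTCCA or CAAAGGTCA (in 0.384% and 0.407% of all promoters), the HNF1 palindrome (0.0057%), the C/EBP motifs TTGCGCAA or TTGCATAA (0.151% and 0.846%) or the inverted repeat bound by FXR (0%). A match describes letters in this window, and binding was not measured.

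The comparison of the high dose with clean air asked whether 81.7 ppm of the vapour changed the RNA level beyond the effect of the gas flow. None of the 6 genes passed the limma test at an adjusted p below 0.05, a threshold that 0.0435% of all clusters passed. At an unadjusted p below 0.05, which 6.39% of all clusters reached, there was also none of the 6. A block for the plate made this count 1, FOXA1, against 7.56% of all clusters. The difference of the group means was positive for 4 genes and negative for 2, with a median of 0.10 on the log2 scale, against -0.01 over all clusters.

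A1CF came closest among the 6, at 4.46 in HD and 4.89 in CA, a difference of -0.43 (SE 0.22, 95% interval -0.90 to 0.04, limma adjusted p = 0.811). It was the 1 gene of the 6 whose HD and CA arrays did not overlap, a state found in 10.8% of all clusters. FOXA1 differed by -0.57 between HD and CA (SE 0.42, 95% interval -1.46 to 0.33, limma adjusted p = 0.912), with overlapping arrays. This interval reached from 0.362 to 1.26 as a ratio of HD to CA, so neither a marked decrease nor a small increase was distinguishable at 3 arrays per group.

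HNF4G differed by 0.26 between HD and CA (SE 0.28, 95% interval -0.33 to 0.85, limma adjusted p = 0.956), which as a ratio is 0.794 to 1.80. The differences of FOXA2 (0.08), FOXA3 (0.28) and CEBPA (0.12) were at most about as large as their standard errors of 0.26, 0.27 and 0.28. For these genes the HD arrays overlapped with the CA arrays.

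**Figure D2:**
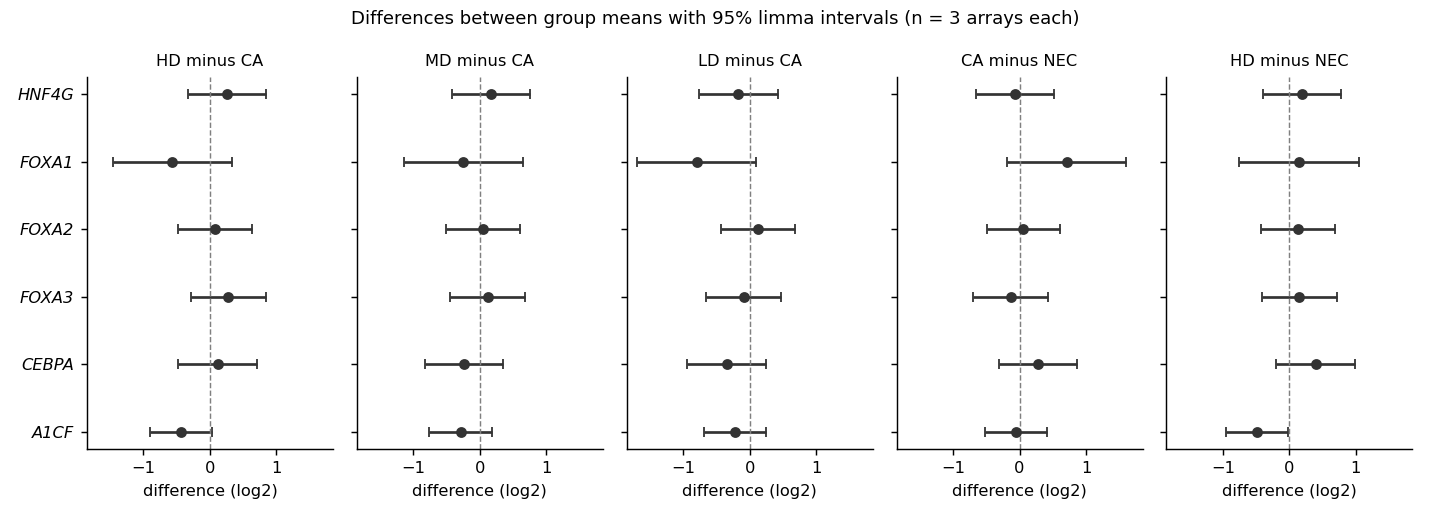
Differences between group means on the log2 scale (x axes) for the 6 measured genes (y axis), with HD, MD and LD each against CA, CA against NEC, and HD against NEC from left to right. Points are the limma estimates and bars their 95% intervals (n = 3 arrays per group), and A1CF in HD against NEC, at -0.49, is the 1 estimate whose interval does not include 0.

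At the mid dose, 41.1 ppm, none of the 6 genes and none of all clusters (0%) passed the adjusted threshold against CA. None of the 6 reached an unadjusted p below 0.05, against 6.17% of all clusters, and none had arrays that did not overlap, against 11.4%. A1CF differed by -0.29 between MD and CA (SE 0.22, limma adjusted p = 0.908), FOXA1 by -0.25 (SE 0.42, limma adjusted p = 0.970) and HNF4G by 0.17 (SE 0.28, limma adjusted p = 0.969). The median over the 6 genes was -0.09, against -0.01 over all clusters.

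At the low dose, 14.9 ppm, again none of the 6 genes and none of all clusters (0%) passed the adjusted threshold against CA. The share at an unadjusted p below 0.05 was 6.35% of all clusters, and 10.3% had arrays that did not overlap, with none of the 6 in either set. FOXA1 showed its largest difference between any 2 groups here, -0.80 (SE 0.42, 95% interval -1.70 to 0.10, limma adjusted p = 0.820). Without replicate 3 of LD, the lowest FOXA1 array, this difference was -0.37 (limma adjusted p = 0.912), and without replicate 1 of CA it was -1.26 (limma adjusted p = 0.492). CEBPA differed by -0.35 and A1CF by -0.22 between LD and CA, and the median over the 6 genes was -0.20, against -0.03 over all clusters and -0.09 over the 33616 symbols.

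The comparison of CA with NEC asked what the gas flow alone did. None of the 6 genes passed the limma test, and of all clusters 0% did. At an unadjusted p below 0.05 there was none of the 6 either, against 5.44% of all clusters, and arrays did not overlap in none of the 6, against 9.75%. FOXA1 differed by 0.71 between CA and NEC (SE 0.42, 95% interval -0.19 to 1.61, limma adjusted p = 0.944). Without 1 array this difference ran between 0.39, without replicate 1 of NEC, and 1.17, without replicate 1 of CA. CA was above NEC on each of the 3 plates, by 0.43 on plate 1, 1.18 on plate 5 and 0.52 on plate 6. For HNF4G (-0.07), FOXA2 (0.06), FOXA3 (-0.13), CEBPA (0.28) and A1CF (-0.06) the differences were no larger than their standard errors of 0.22 to 0.28.

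In HD against NEC, the threshold at an adjusted p below 0.05 was passed by 0.236% of all clusters and by none of the 6 genes. A1CF differed by -0.49 (SE 0.22, 95% interval -0.96 to -0.02, limma adjusted p = 0.574), and it was the 1 gene of the 6 at an unadjusted p below 0.05, against 8.36% of all clusters. When the plate was a block, none of the 6 was below 0.05, against 8.92% of all clusters, and without 1 array the A1CF difference ran between -0.62 and -0.29, the smallest without replicate 2 of NEC. The HD and NEC arrays did not overlap for A1CF and for CEBPA, 2 of the 6 genes, against 13.3% of all clusters. CEBPA lay at 3.98 ± 0.15 in HD and 3.58 ± 0.01 in NEC (SD, n = 3 each), a difference of 0.39 (SE 0.28, limma adjusted p = 0.782), with both groups below the negative-control median. FOXA1, which differed between HD and CA by -0.57, differed between HD and NEC by 0.14 (SE 0.42).

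The study's own criteria for the arrays were an unadjusted p below 0.05 together with a fold above 2. They were applied here to limma p-values, so the counts are not those that the study reported from its own software. None of the 6 genes was counted in these comparisons without the plate as a block. With the block FOXA1 met these criteria in HD against CA, as did 1.92% of all clusters. Of all clusters these criteria took 0.821% in HD against CA, 0.525% in MD against CA, 0.524% in LD against CA, 0.439% in CA against NEC and 1.26% in HD against NEC.

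The remaining 5 group pairs gave no passing gene among the 6. Over all clusters, 0.0147% passed in MD against NEC, 0.00147% in LD against NEC, 0.0155% in HD against LD, 0% in HD against MD and 0% in MD against LD. The largest differences here were 0.46 for CEBPA (limma adjusted p = 0.679) and 0.43 for HNF4G (limma adjusted p = 0.710) in HD against LD, 0.46 for FOXA1 in MD against NEC (limma adjusted p = 0.918), and 0.55 for FOXA1 in MD against LD (limma adjusted p = 0.766). These dose pairs lie on different plates. With the plate as a block, CEBPA differed by 0.34 and HNF4G by 0.014 in HD against LD. FOXA1 then differed by 0.17 in MD against NEC and by -0.52 in MD against LD, which turned its direction. In HD against LD the block also turned FOXA1, from 0.23 to -1.03 (limma adjusted p = 0.657). CEBPA in HD against MD went from 0.36 to 0.74 with the block (limma adjusted p = 0.965). In MD against NEC the block left A1CF at -0.57 (limma adjusted p = 0.883), the 1 gene of the 6 at an unadjusted p below 0.05, against 5.66% of all clusters.

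A straight line on concentration, fitted through CA and the 3 doses (12 arrays), also gave no passing gene, against 0.0744% of all clusters, and none of the 6 at an unadjusted p below 0.05, against 7.55%. When the plate was a block, 2 of the 6, A1CF and FOXA1, were below 0.05, against 7.05% of all clusters. A1CF had a slope of -0.047 on the log2 scale per 10 ppm (SE 0.023, limma adjusted p = 0.676). FOXA1 had a slope of -0.033 (SE 0.050, limma adjusted p = 0.932) and HNF4G one of 0.043 (SE 0.033, limma adjusted p = 0.821).

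The plate numbers were then taken into account, since CA and NEC arrays shared them with the doses. FOXA1 averaged 7.14 on the LD arrays of plate 1 and 7.02 on its CA array, 7.70 on the MD arrays of plate 5 and 8.47 on its CA array, and 7.38 on the HD arrays of plate 6 and 8.33 on its CA array. Thus all 3 MD arrays and all 3 HD arrays lay below the CA array of their own plate, by 0.77 and 0.96 on average, while the LD arrays lay on both sides of theirs. On plate 6 the HD arrays were also 0.44 lower on average than the NEC array, but on plate 5 the MD arrays were 0.41 higher than the NEC array. With the plate as a block, FOXA1 differed by -1.05 between HD and CA (SE 0.42, limma adjusted p = 0.594), against -0.57 without the block, and by -0.02 between LD and CA. The FOXA1 slope with the block was -0.126 per 10 ppm (limma adjusted p = 0.643).

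For A1CF the dose arrays minus the CA array of the same plate gave 0.04 at LD, -0.34 at MD and -0.65 at HD, and all 3 MD and all 3 HD arrays were below both control arrays of their plate. With the plate as a block, A1CF differed by -0.41 between HD and CA (limma adjusted p = 0.785) and its slope was -0.077 per 10 ppm (limma adjusted p = 0.607). HNF4G gave 0.38 at LD, 0.02 at MD and -0.15 at HD against the CA array of the plate. A single CA array per plate number has no spread of its own, so these within-plate differences carry no test. Whether the arrays of a number shared a physical plate is not known.

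**Figure D3:**
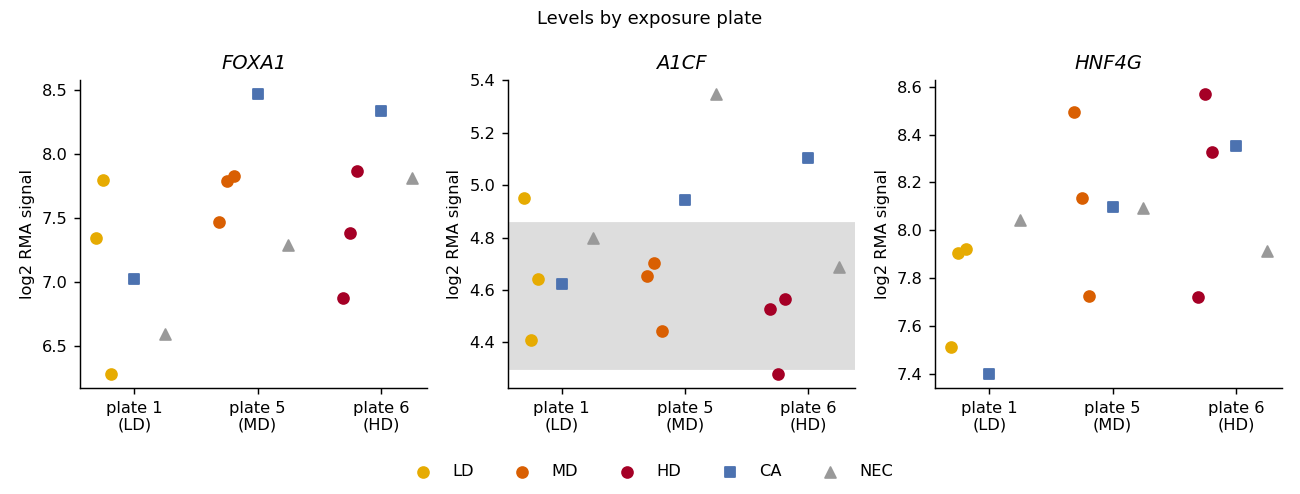
Log2 signal of FOXA1, A1CF and HNF4G (y axes) by exposure plate (x axes), with the 3 dose arrays as circles, the CA array as a square and the NEC array as a triangle on each plate. For FOXA1 and A1CF the MD and HD circles all lie below the CA square of their plate, and the grey band in the A1CF panel spans the negative-control medians.

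LD replicate 3 gave the lowest signal of all 15 arrays for FOXA1 (6.29), FOXA2 (3.97), FOXA3 (3.13) and CEBPA (3.07). The same array had the lowest mean over the 5990 bright genes, 10.46, whereas the arrays reached up to 11.15, and the lowest negative-control median, 4.30. Across the 15 arrays, the FOXA1 signal correlated with this bright mean at a Pearson r of 0.816 (permutation p = 0.00034, adjusted over the 6 genes 0.0020) and a Spearman rho of 0.796 (permutation p = 0.00068, adjusted 0.0041). Without the 2 arrays farthest from the median brightness the FOXA1 r was 0.746 over 13 arrays, and after subtraction of the group means it was 0.911. How many other genes follow the bright mean as closely was not counted, so this is not shown to be particular to FOXA1. The permutations treated the 15 arrays as exchangeable, although they share groups and plates.

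The same correlation was 0.660 for FOXA3 (rho 0.554), 0.636 for CEBPA (rho 0.532), 0.496 for FOXA2 (rho 0.375), 0.236 for HNF4G (rho 0.204) and -0.164 for A1CF (rho -0.264). Of these, FOXA3 and CEBPA had an adjusted permutation p of 0.0198 each for r and 0.0881 each for rho, and the other 3 had an adjusted p of at least 0.0962. Without the 2 farthest arrays r was 0.461 for FOXA3, 0.466 for CEBPA, 0.160 for FOXA2, 0.145 for HNF4G and -0.202 for A1CF. A plate holds 5 arrays, too few for an r of its own, and the groups share the plates and the brightness. With brightness as a covariate, a fit chosen after seeing the data, FOXA1 differed by -0.75 between HD and CA (limma adjusted p = 0.419) and A1CF by -0.43 (limma adjusted p = 0.748).

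**Figure D4:**
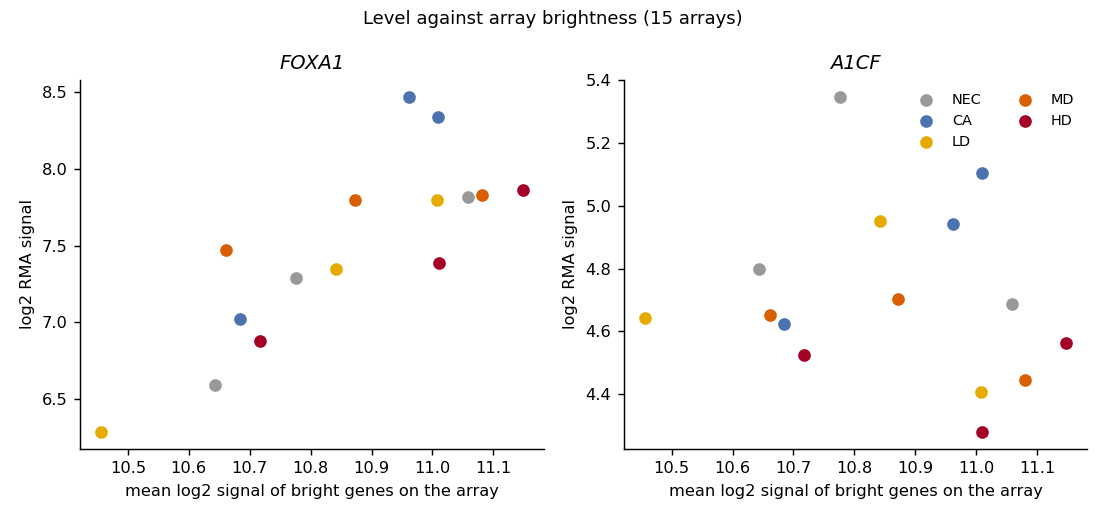
Log2 signal of FOXA1 and A1CF (y axes) against the mean log2 signal of the 5990 bright genes on the same array (x axes), with each of the 15 arrays as a point coloured by group. FOXA1 runs with array brightness at an r of 0.816, and A1CF does not, at -0.164.

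The protein-coding genes with the pattern most like a member over the 15 arrays were sought among 9082 genes with a mean signal above 6, as a description. For FOXA1 they were JUP (r = 0.953), TAGLN2 (r = 0.931) and USP25 (r = 0.925). JUP encodes plakoglobin of desmosomes and adherens junctions, and TAGLN2 an actin-binding protein. For HNF4G they were CCP110 (r = 0.805), CENPH (r = 0.774) and LMNB1 (r = 0.757), which encode a centriole protein, a kinetochore protein and lamin B1. For A1CF, whose mean of 4.71 lay within the range of the negative-control medians, they were CTDSPL (r = 0.822), BDNF (r = 0.742) and GRB14 (r = 0.740). All arrays of a plate or group enter these correlations together, along with differences in array brightness. They are also the highest of 9082 values over only 15 arrays. Values of this kind can arise between unrelated genes, and no relation was tested.

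Other regulators of the same tissues were described with a list of 25 genes, of which 21 had a row and 12 were above background in all 5 groups. None passed the test in HD, MD or LD against CA, in CA against NEC, in HD against NEC or in the slope. The median difference between HD and CA over the list was -0.03, against -0.01 over all clusters. The 3 smallest p-values above background belonged to CEBPG, PPARGC1A and HHEX. CEBPG, a C/EBP family member that pairs with other leucine zipper factors, averaged 13.16 in HD and 11.91 in CA, a difference of 1.25 (SE 0.25, limma adjusted p = 0.134). PPARGC1A, a coactivator of HNF4A and other nuclear receptors, averaged 13.50 in HD and 14.31 in CA, a difference of -0.81 (SE 0.26, limma adjusted p = 0.547). HHEX, a homeobox factor of early liver, averaged 6.43 in HD and 7.20 in CA, a difference of -0.77 (SE 0.32, limma adjusted p = 0.719). CEBPB, which shares binding motifs with CEBPA, averaged 8.15 in HD and 7.97 in CA, without passing the test.

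Known target genes of the regulators were grouped by factor. Of the 16 FXR target genes, 2 fell in HD against CA, where 0.0435% of all clusters passed, none rose and 14 did not pass, with a median of -0.11, against -0.01 over all clusters. Those that fell were FGA and FGG, which encode the alpha and gamma chains of fibrinogen, the clotting protein that liver secretes. The lists were chosen with earlier results of these data known, and this one holds all 3 fibrinogen chains. NR1H4, the gene of FXR, had no row. The count is therefore no measure of FXR activity, which was not tested. FGA had signals of 17.67, 18.22 and 18.47 on the HD arrays, against 19.40, 19.93 and 19.91 on the CA arrays, and FGG had 17.24, 17.45 and 17.78 on the HD arrays, against 18.93, 19.54 and 19.91 on the CA arrays. The HD arrays did not overlap with the CA arrays for either gene. FGA lay at the highest value of the array on 2 of 3 CA arrays and 2 of 3 NEC arrays, and FGG on 1 CA and 2 NEC arrays, a value shared by 57 to 89 clusters on each of the 15 arrays. The control levels of FGA and FGG on those arrays are therefore only lower bounds, and their differences below are not exact sizes, whereas FGB was under the highest value on every array.

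FGA differed by -1.63 between HD and CA (SE 0.26, limma adjusted p = 0.0366) and FGG by -1.97 (SE 0.31, limma adjusted p = 0.0313). FGB, the beta chain, differed by -1.66 (SE 0.30, limma adjusted p = 0.0735) and did not pass, but it passed with the plate as a block at -2.09 (limma adjusted p = 0.0401). With that block FGA was at -1.74 (limma adjusted p = 0.148) and FGG at -2.28 (limma adjusted p = 0.0654), no longer past the threshold. With HD and CA alone in the fit, neither passed (limma adjusted p = 0.239 for FGA and 0.195 for FGG). Without any 1 of the 6 HD and CA arrays FGA did not pass either, at -1.80 to -1.41, and FGG passed only without replicate 1 of CA, with differences of -2.11 to -1.75 without the other arrays. In HD against NEC all 3 chains fell, FGA with a difference of -1.74 (limma adjusted p = 0.0069), FGB with a difference of -2.23 (limma adjusted p = 0.0041) and FGG with one of -2.27 (limma adjusted p = 0.0041). The share over all clusters was 0.236%. The FGA call was lost with the plate as a block (limma adjusted p = 0.0505) and with HD and NEC alone in the fit (0.0545), and the FGB call with HD and NEC alone (0.0617). The remaining FXR targets included KNG1, kininogen, at 5.66 in HD and 7.05 in CA (difference -1.38, SE 0.39, limma adjusted p = 0.408), and the bile acid transporter subunit SLC51B, at 10.55 in HD and 10.72 in CA. NR0B2, the corepressor that FXR induces, lay below background in every group.

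Of the 22 HNF4A target genes, 19 had a row and 9 were above background in all 5 groups. None passed the test in the same 6 comparisons, and the median difference between HD and CA was -0.01, as over all clusters. TF, transferrin, averaged 5.16 in HD and 5.80 in CA (difference -0.64, limma adjusted p = 0.786), SERPINA1, the antitrypsin gene, 4.69 in HD and 5.40 in CA (-0.70, limma adjusted p = 0.831), and F7, coagulation factor VII, 5.99 in HD and 6.37 in CA (-0.38, limma adjusted p = 0.901). TTR, transthyretin, which is also a FOXA target, was at 6.12 in HD and 6.13 in CA.

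Of the 12 FOXA target genes, 6 were above background in all 5 groups, none passed in these comparisons and the median difference between HD and CA was 0.02. CDH1, E-cadherin, averaged 8.24 in HD and 9.35 in CA (difference -1.11, SE 0.27, limma adjusted p = 0.270). CPS1, the first enzyme of the urea cycle, averaged 15.26 in HD and 16.16 in CA (-0.90, SE 0.23, limma adjusted p = 0.327), and IGFBP1, an insulin-like growth factor binding protein, 15.80 in HD and 14.82 in CA (0.98, SE 0.32, limma adjusted p = 0.547). The lung targets SFTPB, SFTPC and SCGB1A1 lay below background in all groups.

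Of the 11 CEBPA target genes, which share ALB, TAT, PCK1, G6PC1 and CPS1 with the FOXA list, 4 were above background in all groups. None passed in these comparisons, and the median difference between HD and CA was -0.13, against -0.01 over all clusters. Besides CPS1, the smallest p-values among genes above background belonged to ALB, albumin, at 5.65 in HD and 5.94 in CA (-0.29, limma adjusted p = 0.932), and to PCK1, a gluconeogenic enzyme, at 6.38 in HD and 6.16 in CA (0.22, limma adjusted p = 0.938).

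For A1CF, 5 of 6 listed partners or targets had a row, none passed in these comparisons, and the median difference between HD and CA was 0.09. The RNA-binding partner RBM47 averaged 10.19 in HD and 9.98 in CA (difference 0.21, SE 0.32), SYNCRIP 14.18 in HD and 14.12 in CA (0.06, SE 0.22), and HNRNPAB 13.46 in HD and 13.37 in CA (0.09, SE 0.23). The deaminase APOBEC1 and the editing substrate APOB lay below background in every group. Over all lists together, 74 genes had a row, of which 2 passed in HD against CA, 3 in HD against NEC and none in the other 3 comparisons with a control or in the slope.

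**Figure D5:**
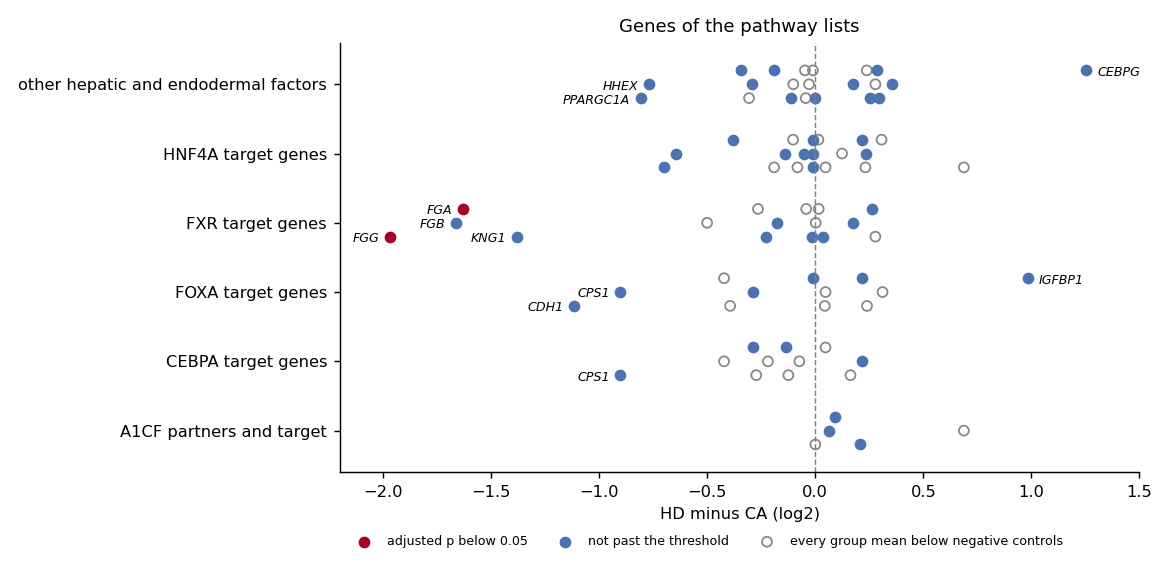
Difference between HD and CA on the log2 scale (x axis) for each gene of the 6 lists (y axis), with genes past an adjusted p of 0.05 in red, other genes in blue and genes whose group means were all below the negative controls as open circles. FGA and FGG, at -1.63 and -1.97, are the 2 genes that passed, and the A1CF partners above background lie between 0.06 and 0.21.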

How the data were processed

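The authors used the Transcriptome Analysis Console and normalised by RMA (robust multi-array average). The deposited values are log2 signals and were used as they are. Of 138745 transcript clusters, 2995 controls were left out. The annotation gave 1 symbol for 36176 clusters, several for 1119 and none for 98455. The genes and lists described were chosen with earlier results of these data known.

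limma 3.58.1 (lmFit, eBayes; R 4.3.3) was applied to the 15 arrays at once, with a mean for each of the 5 groups (10 residual and 6.32 prior degrees of freedom). Tests were two-sided, p-values were adjusted after Benjamini-Hochberg over 135750 clusters, and an adjusted p below 0.05 passed. The line on concentration left NEC out. Precision is limited by having 3 arrays in a group. The fit was also run on simulated data with independent noise. These held no differences between plates or in array brightness, so the run does not show how the fit behaves under them.

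The rule for names took the 8 genes, the 3 genes most like each one whose mean lay above the negative controls, every list gene that passed and, in lists without one, up to 3 genes above background by p. KNG1, SLC51B, NR0B2, TTR, CEBPB, SCGB1A1, APOBEC1, APOB, HNF4A-AS1, CEBPA-DT and the alveolar markers were added after their values were seen. Since the labels place 1 CA and 1 NEC array on each plate, the plate was a block in an alternative. On plates 1, 5 and 6 the deviations of these 2 arrays from their group means correlated at 0.261, 0.0689 and 0.205 over 17579 protein-coding genes. Bright genes are protein-coding genes with a mean above 8. Permutation tests were two-sided with 100000 resamples.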

Additional observations from a re-analysis of the deposited data

How the results depend on the processing

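Under each alternative run, 0 of the 6 genes passed at an adjusted p below 0.05 in 5 comparisons with a control or in the slope, over 522 values whose smallest limma adjusted p was 0.413. These comparisons were HD, MD and LD against CA and CA and HD against NEC. The study's array criteria (here an unadjusted limma p below 0.05 with a fold above 2) were counted only with all 15 arrays, and gave 0 without the block and 1, FOXA1 in HD against CA, with it. The direction of a difference, not past the threshold in any case, turned in 43 of the 522 values. None turned with the groups compared alone, centred arrays, quantile normalization, a filter on background (74728 clusters, without FOXA3 and CEBPA), clusters with 1 symbol or an intensity trend. With the plate as a replicate block, FOXA1 turned in HD against NEC (-0.34), FOXA2 in LD against CA (-0.076), FOXA3 in HD against CA (-0.018), HD against NEC (-0.15) and LD against CA (0.28), HNF4G in LD against CA (0.092), and the slopes of CEBPA (-0.012) and HNF4G (-0.0063). In the other 5 group pairs the block turned 2 of 6 genes in MD against NEC, 5 in LD against NEC, 3 in HD against LD, 2 in HD against MD and 5 in MD against LD, none of them past the threshold with or without it. With array brightness as a covariate, chosen after seeing the data, FOXA1 turned in HD against NEC (-0.19), FOXA2 in the slope (-0.011) and FOXA3 in LD against CA (0.022). Averaging several clusters of a symbol changed nothing, since each gene had 1. The cause of these shifts was not tested.

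Leaving out 1 array turned 32 values. In HD against CA the ranges were -0.10 to 0.42 for CEBPA, -0.034 to 0.24 for FOXA2 and -0.020 to 0.50 for HNF4G. In MD against CA they were -0.46 to 0.063 for CEBPA, -0.71 to 0.018 for FOXA1, -0.036 to 0.16 for FOXA2, -0.10 to 0.26 for FOXA3 and -0.11 to 0.37 for HNF4G. In LD against CA they were -0.057 to 0.46 for FOXA2, -0.30 to 0.14 for FOXA3 and -0.45 to 0.030 for HNF4G. In CA against NEC they were -0.18 to 0.15 for A1CF, -0.023 to 0.50 for CEBPA, -0.044 to 0.15 for FOXA2, -0.28 to 0.086 for FOXA3 and -0.27 to 0.21 for HNF4G. In HD against NEC they were -0.17 to 0.43 for FOXA1 and -0.0021 to 0.37 for FOXA3, and the FOXA2 slope ran between -0.0079 and 0.024. A1CF stayed negative in HD against CA, at -0.57 to -0.33, and FOXA1 at -1.03 to -0.30.

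Over all clusters, 59 passed in HD against CA, but 10 with the block, 0 with these groups alone, 101 among clusters with 1 symbol, 102 with a trend, 136 with brightness, 1115 at the study's criteria and 6 to 13 without 1 array. In HD against NEC 321 passed, but 118 with the block, 92 with these groups alone, 1717 at the study's criteria and 112 to 189 without 1 array. The slope gave 101, but 17 with the block, 176 among clusters with 1 symbol, 157 with a trend and 5 to 82 without 1 array. MD against CA gave 0, but 3 among clusters with 1 symbol or with a trend and 713 at the study's criteria. LD against CA gave 0, but 711 at the study's criteria and 0 to 2 without 1 array. CA against NEC gave 0, but 1 with quantile normalization, 1 symbol or a trend and 596 at the study's criteria. Signals near or below the negative controls limit what FOXA2, FOXA3, CEBPA and A1CF can show.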
